A study of Mus musculus with 11 samples.

Results

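The genes described here are 10 markers of antigen-presenting cells in mouse skin. They comprise Cd207, a marker of Langerhans cells, the dendritic cell genes Itgax, Clec9a and Ccr7, the class II regulator Ciita, and 5 genes of the class II pathway itself, H2-Aa, H2-Ab1, H2-Eb1, H2-DMa and Cd74. A gene was taken up when an array probeset named that gene alone, and its level was the median of the log2 values of those probesets. All 10 were found, with 113 of the 211507 probesets used, among 20352 measured genes.

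Expression was measured on 11 single-colour arrays, each hybridised with amplified cDNA of 1 tissue piece. The 5 keratoacanthomas, squamous tumours of keratinocytes, came from K14-Cre;Zmiz1 double transgenic animals. Of the 6 normal skins, numbers 1 and 2 came from double transgenic animals as well, numbers 3 and 4 carried K14-Cre alone and numbers 5 and 6 Zmiz1 alone, so that 2 skins shared the genotype of the tumours. K14-Cre drives Cre recombinase from the promoter of keratin 14, which is active in basal keratinocytes; Zmiz1 encodes a transcriptional co-activator of the PIAS-like family. The age and strain of the mice were not given in the sources used here.

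Langerhans cells are the dendritic cells of the epidermis, where they lie between keratinocytes and carry langerin, while other dendritic cells sit in the dermis. Dendritic cells take up antigen, cut it into peptides in endosomes, load the peptides on class II molecules and, once mature, follow chemokines through the receptor Ccr7 to the lymph node. Class II genes share a promoter module of X and Y boxes, on which the RFX and NF-Y complexes assemble and to which the co-activator Ciita is recruited.

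Arrays of the same kind correlated at 0.943 to 0.960 among keratoacanthomas and 0.890 to 0.950 among normal skins, against 0.801 to 0.915 between the groups. Over all genes, 2959 (14.5%) were higher and 2200 (10.8%) lower in keratoacanthoma at an adjusted p below 0.05 in limma, 57.4% of the calls being higher. With each array centred on its median, 3485 were higher and 1677 lower, 67.5% higher. Whether each piece was from its own animal is not given in the sources used here. The p-values therefore rest on the variation among arrays, which may be technical, and the number of arrays limited the precision. The tissue pieces differed in make-up. All 10 skeletal muscle markers were lower in keratoacanthoma, with list means of 5.79 to 7.47 in the tumours and 10.62 to 11.82 in the skins. The 8 keratinocyte markers had list means of 10.78 to 10.88 in the tumours and 10.01 to 10.56 in the skins, and 3 of the 8 rose. The part of this make-up in the results on antigen-presenting cell genes was not tested.

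Of the 10 genes, 4 fell in keratoacanthoma at an adjusted p below 0.05 in limma (Cd207, Clec9a, H2-Ab1 and Ciita) and none rose, where 10.8% of all genes were lower. By unadjusted p below 0.05, 6 of the 10 passed, against 7466 of all 20352 genes. The median log2 difference of the 10 was -0.57, against -0.04 over all genes, and 8 of the 10 were below 0. In 1 gene of the 10, Cd207, every keratoacanthoma lay below every normal skin, a pattern that 6.31% of all genes showed. Against the 2 normal skins of the tumours' own genotype, none of the 10 passed the threshold in limma, where 17.6% of all genes did, and 2 of the 10 had an unadjusted p below 0.05.

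**Figure D1:**
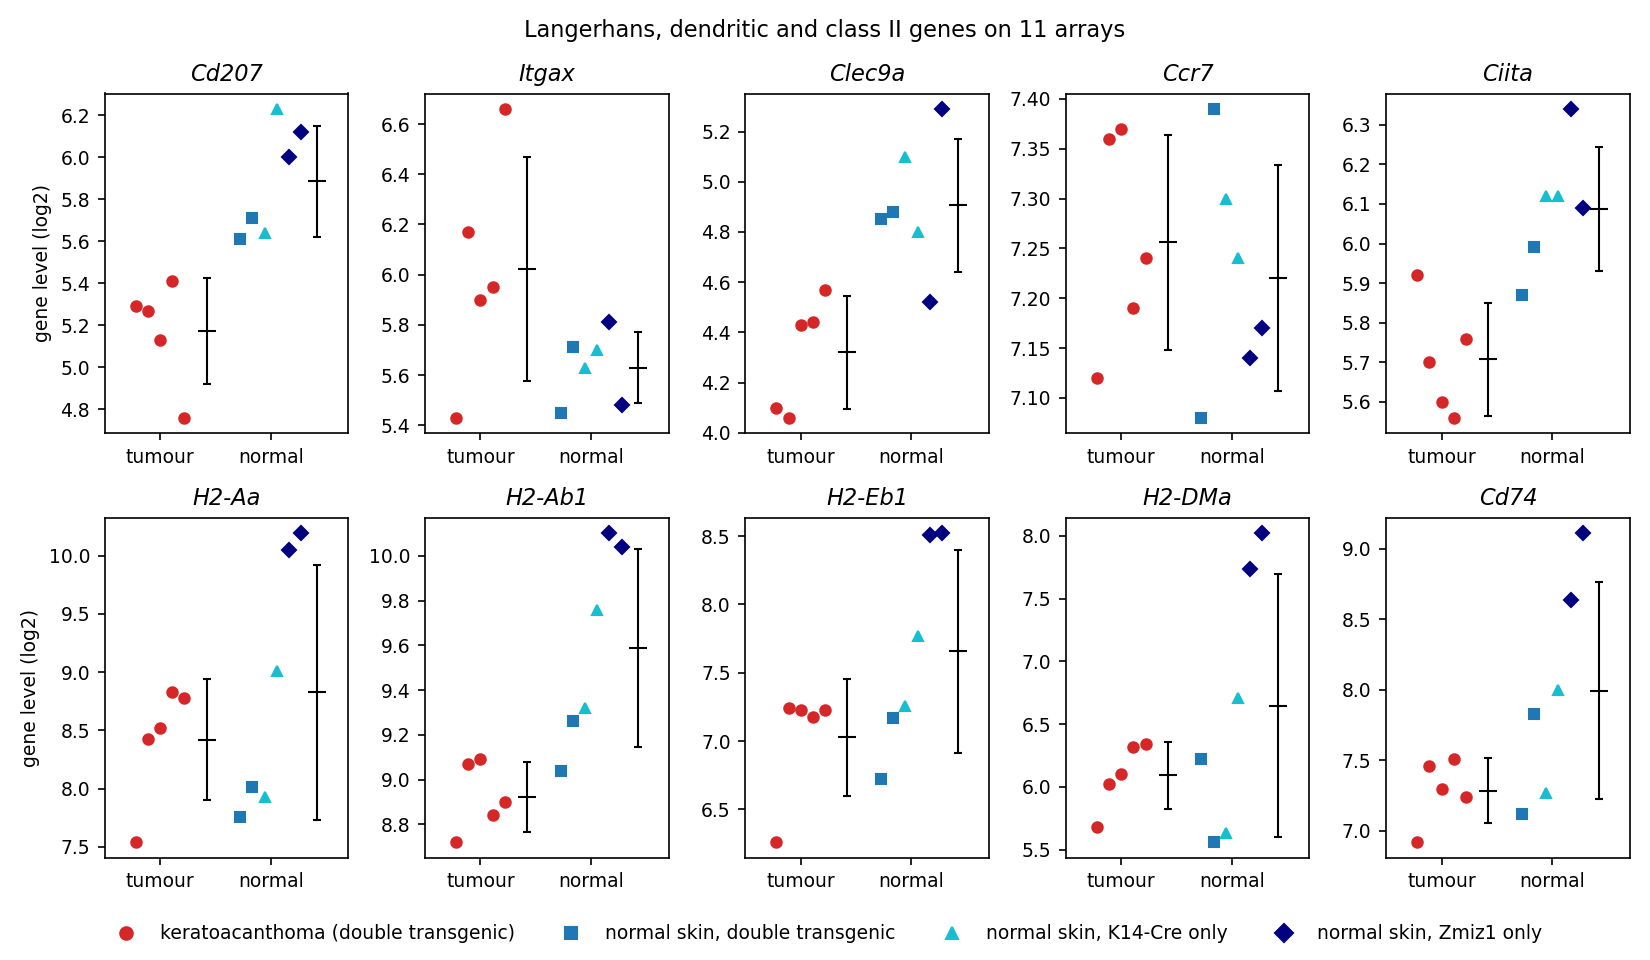
Gene level (log2, vertical axis, a separate scale in each panel) of the 10 genes in each of 5 keratoacanthomas and 6 normal skins, coloured by genotype; the black bar and whiskers are the group mean and SD. The Cd207 panel shows tumours at 4.76 to 5.41 and skins at 5.61 to 6.23 without overlap, and the lower row shows normal skins 4 to 6 above all tumours in each class II gene.

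Cd207 encodes langerin, the lectin that forms the Birbeck granules of Langerhans cells. Its log2 level was 5.29, 5.27, 5.13, 5.41 and 4.76 in keratoacanthomas 1 to 5. In normal skin it was 5.61 and 5.71 with both transgenes, 5.64 and 6.23 with K14-Cre only and 6.00 and 6.12 with Zmiz1 only. All 5 tumours lay below all 6 skins, and the lowest skins were the 2 of double transgenic mice and 1 of K14-Cre mice. Keratoacanthoma averaged 5.17 ± 0.25 and normal skin 5.89 ± 0.27, where the errors here and in what follows are SDs of 5 tumours and 6 skins. The level was 1.64-fold lower in the tumours, with a log2 difference of -0.71 (SE 0.15, limma adjusted p = 0.0039). Against skin of the same genotype the difference was -0.49 (95% interval -0.92 to -0.05, adjusted p = 0.12), and against the 4 single transgenic skins it was -0.83 (adjusted p = 0.0035). In this bulk tissue, fewer cells of a type and less RNA of a gene per cell cannot be told apart. Levels were near the lower end of the array's range, since 25% of probesets averaged below 5.07, and keratoacanthoma 5 lay below that limit.

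Clec9a marks the cross-presenting type 1 dendritic cells, in which it binds actin exposed by dead cells. Keratoacanthomas 1 to 5 had log2 levels of 4.10, 4.06, 4.43, 4.44 and 4.57. The normal skins had 4.85 and 4.88 with both transgenes, 5.10 and 4.80 with K14-Cre only and 4.52 and 5.29 with Zmiz1 only. Of the skins, 5 lay above all tumours and normal skin 5 lay within their range. The means were 4.32 ± 0.23 in keratoacanthoma and 4.91 ± 0.26 in normal skin, a log2 difference of -0.59 (SE 0.15, limma adjusted p = 0.0097) and a level 1.5-fold lower in the tumours. The gene was dim: all 5 tumours and 4 of 6 skins lay below 5.07. Against skin of the same genotype it was -0.55 (95% interval -1.02 to -0.07, adjusted p = 0.11).

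Itgax encodes CD11c, the integrin chain shared by most dendritic cells and some macrophages. Its log2 level was 5.43, 6.17, 5.90, 5.95 and 6.66 in keratoacanthomas 1 to 5, and 5.45, 5.66 and 5.81 as the lowest, median and highest of the 6 normal skins. Keratoacanthoma 1 lay below every skin and the other 4 tumours lay above every skin. The means were 6.02 ± 0.45 in keratoacanthoma and 5.63 ± 0.14 in normal skin, and the log2 difference of 0.39 (95% interval 0.01 to 0.77) missed the threshold with a limma adjusted p of 0.12. Without keratoacanthoma 1 it was 0.54 (adjusted p = 0.023). Keratoacanthoma 1 was also the lowest array in the mean of 8 pan-leukocyte genes, at 7.12, where the tumours reached 7.86 and the skins lay between 7.30 and 8.01.

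Ccr7 directs maturing dendritic cells, and also naive lymphocytes, towards lymph nodes. The log2 level was 7.12, 7.36, 7.37, 7.19 and 7.24 in keratoacanthomas 1 to 5, and 7.08, 7.21 and 7.39 as the lowest, median and highest of the skins. The groups overlapped throughout. The means were 7.25 ± 0.11 in keratoacanthoma and 7.22 ± 0.11 in normal skin, a log2 difference of 0.03 (95% interval -0.17 to 0.24, limma adjusted p = 0.84) whose sign turned under quantile normalization (-0.09). Changes of more than 0.24 on the log2 scale in either direction were thus outside the interval.

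The promoter module of the class II genes could be read for part of the group. RefSeq promoter sequences (GRCm38.p6, 250 bases before to 50 after the start of a gene) were held for 6 of the 10 genes, Cd207, Itgax, Clec9a, H2-Aa, H2-Eb1 and H2-DMa; Ccr7, H2-Ab1, Cd74 and Ciita were not in the table used. The letters GCAAC, the core of the X box, stood on either strand in 35.2% of 32851 promoters, and TGATTGG, the Y box with its inverted CCAAT, in 7.82%. Both on 1 strand, with GCAAC first and 20 to 45 bases from start to start, stood in 84 promoters (0.256%). Among these were H2-Aa and H2-Eb1 and, of the other class II genes, H2-Eb2, H2-Oa and H2-Ob, so that 5 of the 8 class II genes with a promoter in the table held the pair. Of the 2 promoters of H2-DMa, 1 held GCAAC and neither held TGATTGG, while H2-DMb1 and H2-DMb2 held TGATTGG without GCAAC. Itgax and Clec9a held GCAAC only, and the Cd207 promoter held neither motif. The 60 bases around the pair are shown because these class II genes share it while few other promoters hold it; capitals mark the 2 motifs, read 5′ to 3′ on the strand of the gene.
H2-Aa: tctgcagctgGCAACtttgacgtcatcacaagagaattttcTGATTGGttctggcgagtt
H2-Eb1: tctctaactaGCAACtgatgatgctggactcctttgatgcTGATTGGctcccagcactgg
H2-Eb2: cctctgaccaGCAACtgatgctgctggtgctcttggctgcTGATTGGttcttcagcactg
H2-Oa: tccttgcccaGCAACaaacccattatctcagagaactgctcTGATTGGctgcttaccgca
H2-Ob: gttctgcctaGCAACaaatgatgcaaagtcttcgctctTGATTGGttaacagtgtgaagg
In GRCm38.p6 the windows lie at chr17:34287855-34287914 (minus strand) for H2-Aa, chr17:34305766-34305825 (plus strand) for H2-Eb1 and chr17:34325533-34325592 (plus strand) for H2-Eb2. Those of H2-Oa and H2-Ob lie at chr17:34092293-34092352 and chr17:34238808-34238867, both on the plus strand. GCAAC began at position -81 from the gene start in H2-Aa and at -91 in H2-Eb1, with 31 and 30 bases to the start of TGATTGG. The 3 other genes had 28 to 31 bases between the starts. A match is a description of the letters and not evidence of binding in these tissues.

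Ciita, the co-activator that class II transcription depends on, had log2 levels of 5.92, 5.70, 5.60, 5.56 and 5.76 in keratoacanthomas 1 to 5. In normal skin it was 5.87 and 5.99 with both transgenes, 6.12 and 6.12 with K14-Cre only and 6.34 and 6.09 with Zmiz1 only. Keratoacanthoma 1 lay above normal skin 1, and the other 5 skins lay above all tumours. The means were 5.71 ± 0.14 in keratoacanthoma and 6.09 ± 0.16 in normal skin, a log2 difference of -0.38 (SE 0.11, limma adjusted p = 0.020), or 1.3-fold lower in the tumours. The call was lost without keratoacanthoma 3 (-0.35, adjusted p = 0.053) or without keratoacanthoma 4 (-0.34, 0.050). Against skin of the same genotype the difference was -0.22 (95% interval -0.52 to 0.08, adjusted p = 0.29).

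H2-Ab1 encodes the β chain of I-A, the class II molecule whose α chain is H2-Aa. It was the only class II chain or chaperone among the 10 genes to pass the threshold against all 6 skins. The others were below 0 as well, from -0.71 for Cd74 to -0.40 for H2-Aa. Its log2 level was 8.72, 9.07, 9.09, 8.84 and 8.90 in keratoacanthomas 1 to 5. In normal skin it was 9.04 and 9.26 with both transgenes, 9.32 and 9.76 with K14-Cre only and 10.10 and 10.04 with Zmiz1 only. Normal skin 1 lay within the range of the tumours, and the other 5 skins lay above it. The means were 8.92 ± 0.16 in keratoacanthoma and 9.59 ± 0.44 in normal skin, a log2 difference of -0.67 (SE 0.19, limma adjusted p = 0.020) and 1.59-fold lower in the tumours. Against skin of the same genotype the difference was -0.23 (95% interval -0.58 to 0.12, adjusted p = 0.34), against single transgenic skin -0.89 (adjusted p = 0.0026).

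H2-Aa differed more among the normal skins than between the groups. The tumours, in order of their number, had log2 levels of 7.54, 8.43, 8.52, 8.83 and 8.78. The skins had 7.76 and 8.01 with both transgenes, 7.93 and 9.01 with K14-Cre only and 10.05 and 10.19 with Zmiz1 only. Normal skins 1 to 3 lay within the range of the tumours and normal skins 4 to 6 above it. The means were 8.42 ± 0.52 in keratoacanthoma and 8.82 ± 1.10 in normal skin, a log2 difference of -0.40 (SE 0.45, limma adjusted p = 0.56). Against the 2 skins of the same genotype the difference had the other sign, 0.54 (95% interval -0.23 to 1.30, adjusted p = 0.31), and against single transgenic skin it was -0.87 (adjusted p = 0.18). The sign of 0.54 is that of the median over 5 probesets and was not shared by all of them. In probeset 10450156 those 2 skins read 10.59 and 11.04, above all tumours, which read 9.89 to 10.48. How many of the 5 went either way against these skins was not counted.

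H2-Eb1, the β chain of I-E, had log2 levels of 6.26, 7.24, 7.23, 7.18 and 7.23 in keratoacanthomas 1 to 5. In normal skin it was 6.72 and 7.17 with both transgenes, 7.26 and 7.77 with K14-Cre only and 8.51 and 8.52 with Zmiz1 only. Normal skins 3 to 6 lay above all tumours, and keratoacanthoma 1 was the lowest array. The means were 7.03 ± 0.43 in keratoacanthoma and 7.66 ± 0.74 in normal skin, and the log2 difference of -0.63 (SE 0.32) had a limma adjusted p of 0.18. It was 0.08 (adjusted p = 0.87) against skin of the same genotype and -0.99 (0.029) against single transgenic skin.

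H2-DMa is a subunit of the chaperone that exchanges peptides on class II molecules. The log2 level was 5.68, 6.02, 6.10, 6.32 and 6.34 in keratoacanthomas 1 to 5. Normal skin had 6.22 and 5.56 with both transgenes, 5.63 and 6.71 with K14-Cre only and 7.74 and 8.02 with Zmiz1 only. Both ends of the range were normal skins, numbers 2 and 3 lying below all tumours and numbers 4 to 6 above them. The means were 6.09 ± 0.27 in keratoacanthoma and 6.65 ± 1.05 in normal skin, a log2 difference of -0.55 (SE 0.41, limma adjusted p = 0.36) that was 0.20 (0.67) against skin of the same genotype.

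Cd74 encodes the invariant chain, which guides class II molecules to the endosome and blocks their groove on the way. Levels on the log2 scale were 6.92, 7.46, 7.30, 7.51 and 7.24 in keratoacanthomas 1 to 5. Those of normal skin were 7.12 and 7.83 with both transgenes, 7.27 and 8.0 with K14-Cre only and 8.64 and 9.11 with Zmiz1 only. Normal skins 1 and 3 lay within the range of the tumours and the other 4 above it. The means were 7.29 ± 0.23 in keratoacanthoma and 8.0 ± 0.77 in normal skin, and the log2 difference of -0.71 (SE 0.31) had a limma adjusted p of 0.11. It was -0.89 (adjusted p = 0.038) without normal skin 1, -0.97 (0.041) against single transgenic skin and -0.19 (0.64) against skin of the same genotype.

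The differences of the class II genes varied with which normal skin served for comparison. Of the 10 genes, 6 fell against the 4 single transgenic skins, where 9.84% of all genes were lower, and none passed against the 2 double transgenic skins. These comparisons share the tumour arrays, and the call difference between them is not a test. That test is the comparison within normal skin, double minus single transgenic, in which none of the 10 genes passed limma's threshold, where 3 of 20352 genes (0.0147%) did. By unadjusted p below 0.05, 5 of the 10 passed, against 2071 of all genes. These 5 were the class II genes: the log2 difference was -1.41 for H2-Aa (95% interval -2.20 to -0.62, adjusted p = 0.31), -1.13 for H2-DMa (0.33), -1.07 for H2-Eb1 (0.33), -0.78 for Cd74 (0.40) and -0.65 for H2-Ab1 (0.31). It was -0.34 for Cd207 (0.60) and -0.06 for Clec9a (0.95).

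**Figure D2:**
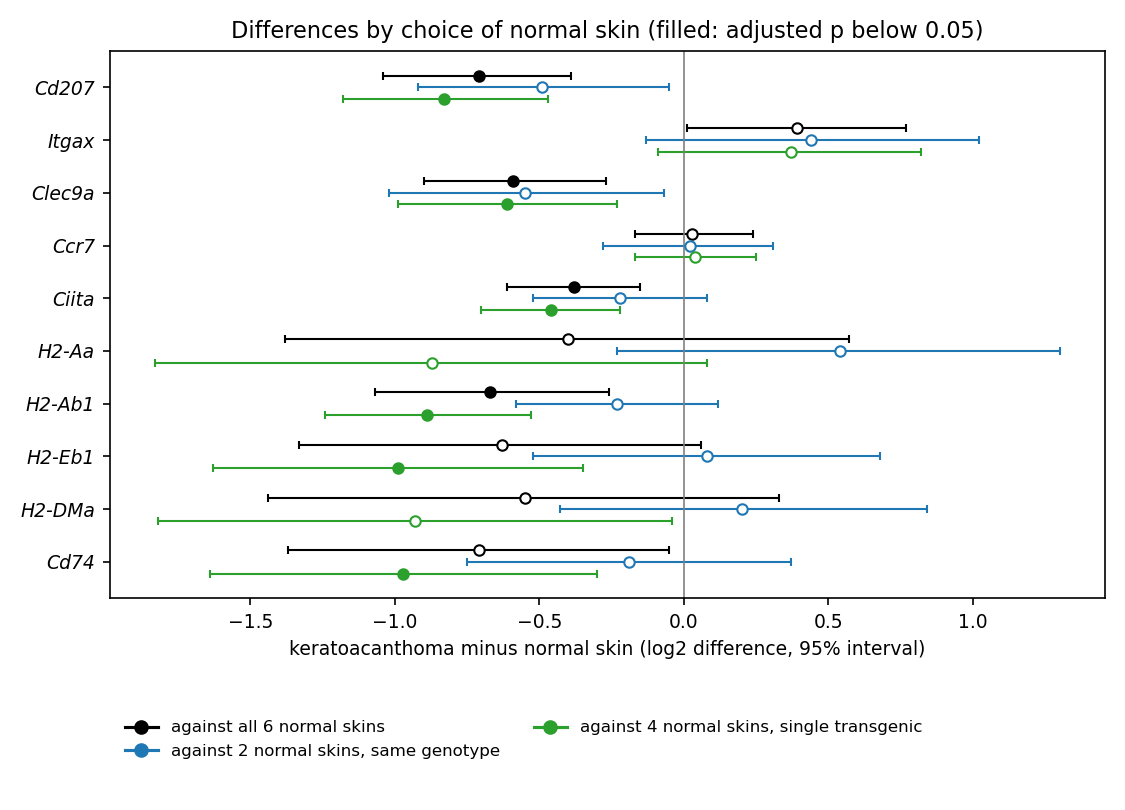
Log2 difference of keratoacanthoma minus normal skin with its 95% interval (horizontal axis) for each of the 10 genes, against all 6 normal skins, the 2 of the same genotype and the 4 single transgenic ones; filled points have an adjusted p below 0.05. Cd207 lies at -0.71, -0.49 and -0.83, while H2-Aa lies at -0.40, 0.54 and -0.87.

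The normal skins were not divided along genotype alone. Within K14-Cre skin, number 4 was above number 3 in all 5 class II genes, by the values given above. The Zmiz1 only skins were the highest 2 arrays in each of the 5. Zmiz1 only minus K14-Cre only skin gave 1.71 for H2-DMa (limma adjusted p = 0.21), 1.65 for H2-Aa (0.30) and 1.24 for Cd74 (0.30), with 0.00% of all genes called by limma. By unadjusted p below 0.05 in that limma comparison, 5 of the 10 genes passed, against 2029 of all genes. These 5 were again the class II genes. An F test over the 3 normal genotypes gave adjusted p of 0.19 to 0.99 for the 10 genes, with 2 genes called of 20352 (0.00983%). Hair keratins also varied among these arrays. The mean of 11 hair shaft genes was 9.94 and 9.63 in normal skins 1 and 3 and 8.86 in keratoacanthoma 4, and between 5.77 and 6.34 in the other 8 arrays. Without the 3 arrays above 8, Cd74 differed by -1.17 (adjusted p = 0.0086) and H2-Eb1 by -1.01 (0.048) between keratoacanthoma and normal skin. The skins left were number 2 with both transgenes, 4 with K14-Cre only and 5 and 6 with Zmiz1 only. Normal skins 1 and 3, left out, were the lowest skins in Cd74, at 7.12 and 7.27. Hair keratin level and genotype mix thus changed together, and their parts were not tested.

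After the group means were subtracted, the 5 class II genes varied together over the 11 arrays, with Pearson correlations of 0.847 to 0.970 over their 10 pairs. With the mean of the 5, Cd207 correlated at 0.535, Ciita at 0.336, Itgax at 0.282, Clec9a at 0.105 and Ccr7 at -0.136. These are descriptions only, since a few arrays weigh heavily in them. In all 5 class II genes, normal skins 5 and 6 lay above the mean of the skins and normal skins 1 to 3 below it. Normal skin 4 lay near that mean, and keratoacanthoma 1 was the lowest tumour in each. Measured the same way among genes of at least median level, the genes most like the class II mean were Fut8 and Itm2b (both 0.967), Ahnak (0.957), Hamp2 (0.944) and Nnat (0.94). Those most like Cd207 were Ypel1 (0.923), Plcb4 (0.920), Aggf1 and Acsbg1 (both 0.913) and Pik3r1 (0.909). A search over so many genes on 11 arrays yields high correlations by selection alone, so these likenesses are descriptions without a test.

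Single probesets of the class II genes were called where the gene level was not. Tested over all 211507 probesets, 18 of the 113 were lower in keratoacanthoma and 2 higher, where 6.98% of all probesets were lower and 8.29% higher. Probesets of a gene share its RNA and are not independent. Lower calls fell in 8 of the 10 genes, all but Ccr7 and H2-DMa, and the largest difference of each gene named next was chosen after the values were seen. The share of all probesets whose groups did not overlap was not counted. Lack of overlap in a probeset is therefore given below as a description only.

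For Cd74, probeset 10456017 read 9.61, 9.97, 10.33, 9.77 and 9.55 in keratoacanthomas 1 to 5, and 10.57, 11.38, 10.99, 11.36, 11.57 and 11.77 in normal skins 1 to 6. All tumours lay below all skins, those of double transgenic mice included. The log2 difference was -1.43 (limma adjusted p = 0.0017), and all 12 probesets of Cd74 had differences below 0, from -1.43 to -0.45. For H2-Eb1, probeset 10444304 read 9.75 in keratoacanthoma 1 and up to 10.13 in the other 4 tumours (mean 10.02 ± 0.16), and 10.65, 11.18, 10.95, 11.46, 11.51 and 11.85 in the skins. Again the groups did not overlap, and the difference was -1.25 (adjusted p = 0.0021), while 2 of the 7 probesets had differences above 0, the higher at 0.17.

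H2-Ab1 had 3 of 6 probesets lower, all without overlap, at -1.16 (probeset 10444295, adjusted p = 0.0022), -0.87 and -0.76. H2-Aa had 2 of 5 lower, at -0.88 without overlap (probeset 10450156, adjusted p = 0.013) and -0.87 (10450155, 0.041), although its gene level missed the threshold. All 6 probesets of H2-DMa lay between -0.69 and -0.38 and none passed.

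Among the dendritic cell genes, the probeset of Clec9a with the most negative difference of its 10, 10542188, averaged 4.83 ± 0.59 in keratoacanthoma and 6.63 ± 0.67 in normal skin, a difference of -1.80 (limma adjusted p = 0.0052) without overlap. Of the 10, 3 were called lower, 2 had differences above 0 and 6 were dim. The brightest, 10542191, did not fall: it averaged 6.96 ± 0.23 in keratoacanthoma and 6.84 ± 0.42 in normal skin (0.13, limma adjusted p = 0.75). Cd207 had 2 of 8 probesets lower, at -1.20 and -1.01, and Ciita 3 of 27, from -1.33 to -0.73. Itgax had calls in both directions. Probesets 10557919 and 10557918 were higher by 1.92 (adjusted p = 0.029) and 1.21 (0.040), whereas 10557923 averaged 7.64 ± 0.21 in keratoacanthoma and 9.02 ± 0.62 in normal skin, a difference of -1.38 (0.0060) without overlap. The gene level of Itgax is therefore a median over probesets that disagree. None of the 4 probesets of Ccr7 passed.

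**Figure D3:**
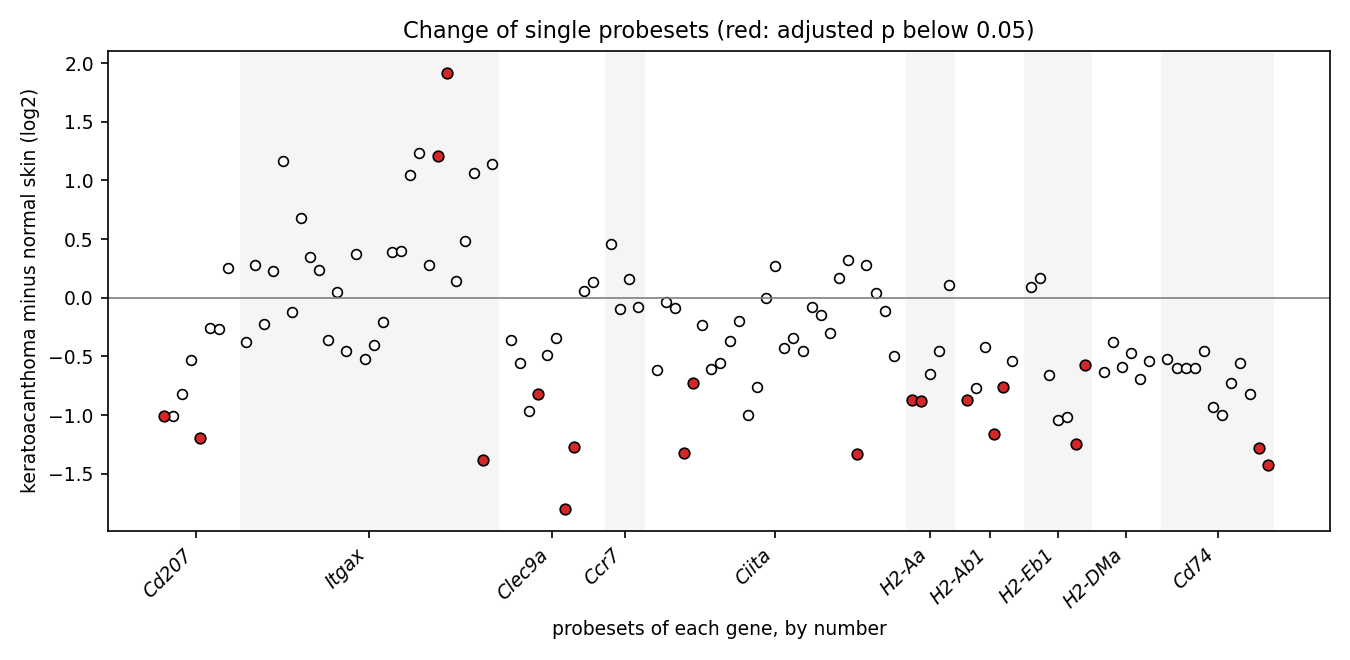
Log2 difference of keratoacanthoma minus normal skin (vertical axis) of each of the 113 probesets, ordered by number within a gene (horizontal axis); red points have an adjusted p below 0.05 over all probesets. Red points lie below 0 in 8 genes, and above 0 in 2 probesets of Itgax.

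A general leukocyte signal was used to ask how the genes stood per leukocyte RNA. The mean of 8 pan-leukocyte genes lay between 7.12 and 7.86 in keratoacanthoma and between 7.30 and 8.01 in normal skin, with 1 of the 8, Lsp1, lower (-0.49). Differences of the 8 ran from -0.49 to 0.81, with a median of 0.13 and none called higher. The list mean averaged 7.64 ± 0.30 in keratoacanthoma and 7.52 ± 0.31 in normal skin. Subtracting it moved the median difference over all genes from -0.04 to -0.17. With each array's mean of these genes subtracted, 4 of the 10 genes were lower, where 6.16% of 20344 genes were. They were Cd207 (-0.83, limma adjusted p = 0.019), Cd74 (-0.83, 0.023), H2-Ab1 (-0.79, 0.016) and H2-Eb1 (-0.75, 0.036). The difference was -0.71 for Clec9a (0.053), -0.50 for Ciita (0.19) and 0.27 for Itgax (0.52). The calls were not stable: 0 to 5 genes were lower when 1 array was left out, with none without keratoacanthoma 5, none without normal skin 4, 1 without either keratoacanthoma 2 or 3, and 2 without keratoacanthoma 4 or normal skin 6. None was lower when Ptprc alone, a phosphatase of all leukocytes, served in place of the list.

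The wider lists held 99 measured genes, of which 89 were not among the 10. Of these 89, 11 rose and 8 fell in keratoacanthoma, with a median log2 difference of -0.04, that of all genes. Over the whole lists the counts were 11 higher and 12 lower of 99. These shares are near those of all genes, 14.5% higher and 10.8% lower, and so are not a result about the lists. The counts of single lists, of 6 to 13 genes each, are given as descriptions beside those same shares, and differences between lists were not tested.

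Of the 10 class II molecules and chaperones, 2 fell and none rose, with a median of -0.55. Besides H2-Ab1, the other was H2-DMb2, a partner chain of H2-DMa, which averaged 6.05 ± 0.15 in keratoacanthoma and 6.68 ± 0.31 in normal skin, a log2 difference of -0.63 (limma adjusted p = 0.0073) without overlap. Against skin of the same genotype it was -0.27 (0.19). The list had 5 genes lower against single transgenic skin or without the 3 arrays high in hair keratins, and 0 against double transgenic skin. All 10 genes were below 0, from -0.71 to -0.18. Of the 13 measured genes of class II gene control, 1 fell, Ciita, and 2 rose, at a median of -0.01. The kinase Jak2, which carries the signal of the interferon gamma receptor, differed by 0.46 (adjusted p = 0.013) and the RFX subunit Rfxap by 0.27 (0.047). In the same-genotype comparison Jak2 passed (0.57, 0.015) and Rfxap did not (0.22, 0.26). The count of higher genes was 1 with any 1 of the 5 tumours or normal skin 2, 4 or 5 left out, and 5 genes were higher with the arrays centred on their median.

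In the loading compartment, 3 of 10 genes rose and none fell. The cysteine protease Ctsl averaged 10.34 ± 0.31 in keratoacanthoma and 9.39 ± 0.41 in normal skin, 0.95 higher on the log2 scale (limma adjusted p = 0.0036) and without overlap. The aspartic protease Ctsd was higher by 0.87 (0.0059) and the lysosomal membrane protein Lamp2 by 0.72 (0.0048). In the same-genotype comparison Ctsl (1.16, 0.012) and Lamp2 (0.86, 0.0096) passed and Ctsd did not (0.87, 0.063). Keratinocytes and other cells use these 3 genes as well. Ctss, the cathepsin that trims the invariant chain in dendritic cells, averaged 8.61 ± 0.43 in keratoacanthoma and 8.55 ± 0.47 in normal skin (adjusted p = 0.89).

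Class I genes, which nearly all nucleated cells express, had 3 of 11 genes higher and none lower, with a median of 0.25. The heavy chain H2-K1 averaged 9.66 ± 0.25 in keratoacanthoma and 8.93 ± 0.24 in normal skin, 0.73 higher on the log2 scale (limma adjusted p = 0.0024) and without overlap. H2-D1, the other heavy chain, was higher by 0.60 (0.045) and the peptide transporter Tap1 by 0.46 (0.032). Against skin of the same genotype all 3 passed, at 0.91 for H2-K1 (0.0049), 0.98 for H2-D1 (0.012) and 0.63 for Tap1 (0.046), and 4 of the 11 genes were higher. Against single transgenic skin H2-K1 passed (0.64, 0.013), while H2-D1 (0.41, 0.15) and Tap1 (0.38, 0.099) did not. Against all skins the count was 1 when keratoacanthoma 1, 2, 3 or 5 or normal skin 1 or 3 was left out. Nlrc5, the co-activator of class I genes and a relative of Ciita, differed by 0.12 (0.40).

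Langerhans cell identity genes went both ways, with 4 of 13 lower, Cd207 among them, and 1 higher. Csf1r, the receptor that Langerhans cells need for survival, averaged 6.30 ± 0.44 in keratoacanthoma and 7.04 ± 0.33 in normal skin, a log2 difference of -0.74 (limma adjusted p = 0.019) without overlap. Il34, its ligand made by keratinocytes, differed by -0.50 (0.031), and Id2, a factor required for Langerhans cells, by -0.57 (0.0099). Cd24a, which keratinocytes also express, was higher by 1.08 (0.00037). None of the 4 lower genes passed against double transgenic skin. Csf1r is a macrophage gene too. Of the 11 macrophage markers, 3 fell (Adgre1, with a difference of -0.98, Mertk, with -0.77, and Csf1r) and none rose, at list means of 6.01 to 7.10 in keratoacanthoma and 7.01 to 7.95 in normal skin. The same-genotype differences were -0.65 for Adgre1 (0.25), -0.39 for Mertk (0.29) and -0.45 for Csf1r (0.27). Their part in the lower class II and Langerhans genes was not tested.

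Type 2 dendritic cell genes had the lowest median of the 10 lists, -0.78, with 4 of 8 lower and none higher. The lectin Mgl2 averaged 4.18 ± 0.65 in keratoacanthoma and 6.16 ± 0.78 in normal skin, a log2 difference of -1.98 (limma adjusted p = 0.0017) and 3.95-fold lower in the tumours. It was -1.53 (0.034) against skin of the same genotype in the model of 4 groups, in which none of the other 3 lower genes passed. In a fit of the tumours and those 2 skins alone, 0 genes of the list were lower, Mgl2 included. The difference was -1.80 for Cd209d, another lectin (0.018), -0.86 for the transcription factor Irf4 (0.028, and -0.19, 0.66, against skin of the same genotype) and -0.75 for Clec12a, an inhibitory lectin of myeloid cells (0.037). The count of lower genes was 2 without keratoacanthoma 1, 2 or 5 or normal skin 5 or 6, and under quantile normalization. Near or below the dim limit of 5.07 lay the tumours in Mgl2 (3.39 to 5.07), Irf4 (4.19 to 5.07) and Clec12a (3.73 to 4.53). The fold difference of Mgl2 thus rests on dim tumour values. Some dermal macrophages carry Mgl2 as well.

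Of 9 type 1 dendritic cell genes, Clec9a alone fell and none rose. Against skin of the same genotype Clec9a did not pass (-0.55, limma adjusted p = 0.11). Itgae, an integrin chain of the list, was higher there (0.55, 0.025) but not against all skins (0.20, 0.38). The other genes of that list included Xcr1, a chemokine receptor, at 4.30 ± 0.38 in keratoacanthoma and 4.46 ± 0.19 in normal skin (limma adjusted p = 0.51). Xcr1 was dim, below 5.07 in every array, which limits what its lack of a call can show. None of 6 pan dendritic genes passed. Of 13 measured genes of mature migratory cells, 1 rose, the co-stimulatory ligand Cd80 (0.84, adjusted p = 0.0095, and 1.01, 0.043, against skin of the same genotype). Of 7 plasmacytoid genes, 1 rose, Bst2 (0.78, 0.030), which interferon also induces in other cells; that call was lost against skin of the same genotype (0.76, 0.15) and without keratoacanthoma 2, 3 or 4 or normal skin 2 or 4.

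Other cells that can carry class II were B cells, whose 7 measured markers had list means of 4.72 to 4.95 in keratoacanthoma and 4.66 to 5.06 in normal skin, below 5.07 in every array. Single markers differed in level. Pax5, Cd22, Blk and Cd79b averaged 5.18 to 5.64 in both groups, and Ms4a1, Cd79a and Fcer2a 3.55 to 4.63. None of the 7 was called. Of 6 measured T cell markers, 1 fell, Cd3g (-1.02, limma adjusted p = 0.016), and none rose. The differences of the 6 went both ways, from -1.02 to 0.28, with a median of -0.17. Among them Cd3e differed by -0.47 (0.17) and Cd3d by 0.18 (0.44). For Cd3g the difference was -0.29 (0.46) against skin of the same genotype and -1.39 (0.00095) against single transgenic skin. Cd3g is a chain of the T cell receptor complex that epidermal γδ T cells also carry.

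**Figure D4:**
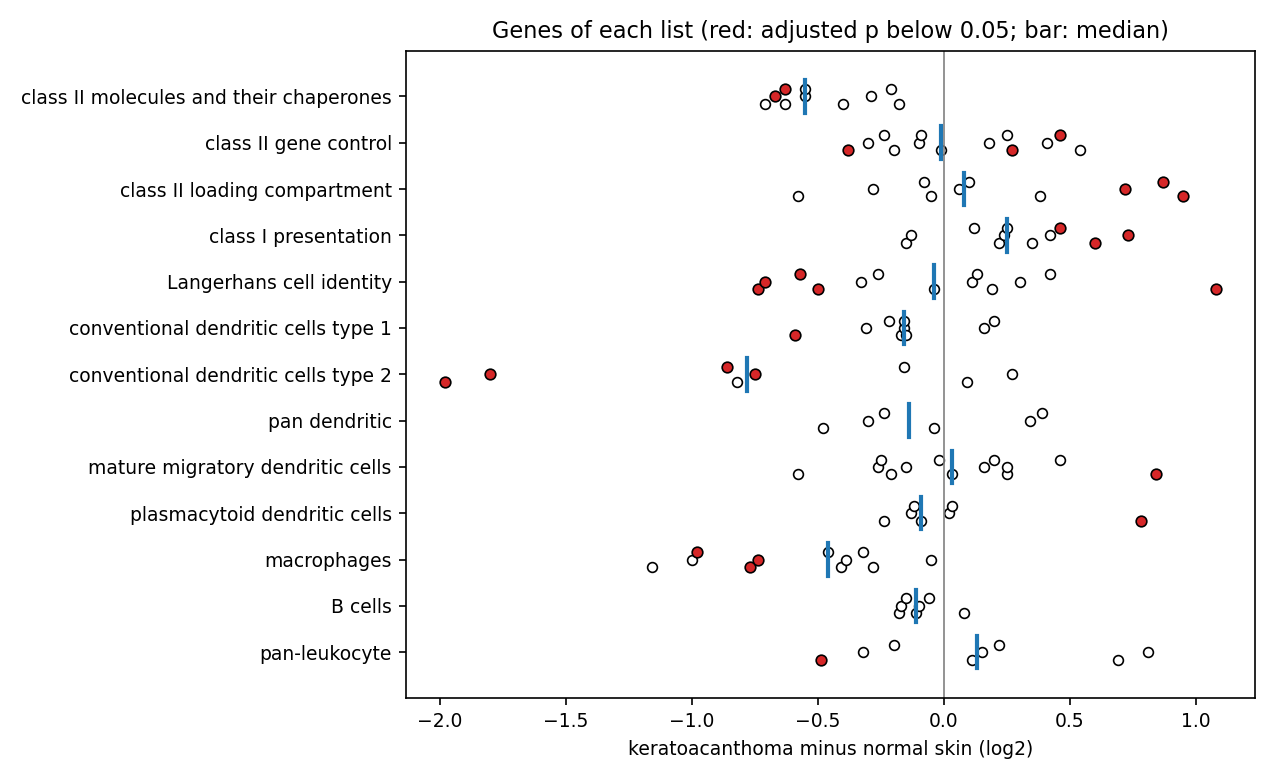
Log2 difference of keratoacanthoma minus normal skin (horizontal axis) of each gene in 10 antigen presentation and dendritic cell lists and 3 marker lists (rows); red points have an adjusted p below 0.05 and the blue bar is the list's median. Class II molecules lie between -0.71 and -0.18, while class I genes have a median of 0.25 and type 2 dendritic cell genes of -0.78.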

How the data were processed

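The values deposited by the authors were on a log2 scale, for 241576 probesets and 11 arrays; per the submitters' processing notes they came from RMA, Partek and genome build mm9, with versions not given in the sources used here. RMA includes background correction and quantile normalization, and the values were used as deposited. Of the probesets, 212097 named 1 gene, 4475 several and 25004 none. Those naming 1 gene were used, less 590 identical to another probeset of the gene, and 2742 of 20416 symbols were updated. Array medians lay between 6.22 and 6.27, and dim means below 5.07, the 25th percentile of probeset means. Array signal has no count depth, and log2 levels of different genes were not compared.

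Tests were made in limma 3.58.1 (lmFit, eBayes) in R 4.3.3, with Benjamini-Hochberg adjustment over all genes or all probesets and a threshold of 0.05; intervals are at 95%. The groups were fitted as 2, and as 4 (keratoacanthoma and 3 normal genotypes) for the genotype contrasts. The leukocyte comparison subtracted each array's mean of 8 genes, and tested the other 20344. The steps were tested on simulated data. Python 3.11.15 with numpy 2.4.6, pandas 2.3.3 and matplotlib 3.10.9 made the tables and figures.

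Members, the 10 pathway lists (103 genes, 99 measured), the 7 marker lists and the tests were chosen with earlier results of these data known. Named besides the 10 genes were, per list, up to 4 other genes of largest change past the threshold in each direction. Ctss, Nlrc5, Xcr1, Itgae, Adgre1, Mertk, Lsp1 and Cd3g were chosen after their values were seen, as was Ptprc's use as a marker in the text. The alternatives tried were quantile normalization, arrays centred on their median, probesets averaged rather than taken at the median, dim probesets or dim genes left out, array weights, a trended robust eBayes, a replicate block by title number, normal skin of 1 kind, and 1 array left out at a time. Fits without, or adjusted for, the arrays high in hair keratins were chosen after seeing the data.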

Additional observations from a re-analysis of the deposited data

Results flagged for a closer look

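H2-Eb1 was low in keratoacanthoma 1, at a log2 level of 6.26, while the other 4 keratoacanthomas lay between 7.18 and 7.24. The gap took 0.942 of the range of the 5 tumours, above the critical value for 5 samples. Both groups of each of the 10 genes were examined, 20 in all, and chance passes about 1 in 20 such groups. Keratoacanthoma 1 was also the lowest tumour in H2-Aa (7.54), H2-Ab1 (8.72), H2-DMa (5.68), Cd74 (6.92) and the pan-leukocyte mean (7.12).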

How the results depend on the processing

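For the 10 genes against all normal skin, 215 of 239 alternative values kept their sign and side of the threshold, 10 gained the call, 10 lost it and 4 changed sign. Against double transgenic skin alone in a 2-group fit, no gene was lower and H2-Aa (0.54), H2-Eb1 (0.08) and H2-DMa (0.20) changed sign; the lists then had 0 genes lower, and all genes 1942 higher and 1244 lower. Ccr7 was -0.09 under quantile normalization and 0.36 relative to Ptprc alone, where 0 genes were lower. Under quantile normalization 7 list genes were higher. With the title's number as a replicate block, 2 genes were lower instead of 4, H2-Ab1 at -0.58 (adjusted p = 0.050) and Ciita at -0.38 (0.078) being lost; same-numbered deviations correlated at -0.181 to 0.103 and 1 of 5 tumours correlated best with its own number, so the numbers were not taken as pairs. Ciita also missed without dim probesets (-0.26) and under quantile normalization (-0.31). H2-Eb1 passed with the mean over probesets (-0.61) and both H2-Eb1 (-0.63) and Cd74 (-0.71) in the 4-group model; Cd74 passed with the hair list as covariate (-0.80). With 1 array left out, 0 to 1 gene was higher and 3 to 5 lower, list genes higher numbered 7 (without keratoacanthoma 3) to 14, and genes lower relative to leukocytes 0 to 5. Against the same genotype the values ran from -0.14 to 0.17 for Ccr7, -0.15 to 0.31 for H2-Eb1, -0.13 to 0.53 for H2-DMa and -0.55 to 0.16 for Cd74. Within normal skin they ran from -0.21 to 0.05 for Itgax, -0.13 to 0.18 for Ccr7 and -0.25 to 0.13 for Clec9a. The cause of these changes was not tested. Filtering dim genes left no value for Clec9a. No background was measured on these arrays, and 2 to 6 arrays a group limited the precision.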
